A study of Caenorhabditis elegans with 12 samples.

Results

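The *C. elegans* Y-box genes *cey-1*, *cey-2*, *cey-3* and *cey-4* were followed in gonads of *set-2* mutants over the P0, F2 and F4 generations. They are 4 of the 45627 rows of the deposited gene table and were selected by gene name. All 4 passed the filter on low counts. From these same samples the paper lists *cey-2*, *cey-3* and *pgl-3* among germline-specific genes downregulated over generations. Their falls were therefore known beforehand. Germline-specific *cey-2* and *cey-3* were set beside *cey-1* and *cey-4*, which are also expressed outside the germline.

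Y-box proteins carry a cold-shock domain that binds single-stranded RNA with little sequence preference. They coat messenger RNA in the cytoplasm as part of messenger ribonucleoprotein particles (mRNPs), and they influence how far a bound message is stored, translated or degraded. In the *C. elegans* germline they act on maternal mRNA, and CEY proteins were found in particles with the RNA helicase CGH-1 and the RNA-binding protein CAR-1.

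SET-2 is the histone H3 lysine 4 methyltransferase of the SET1/COMPASS complex, and *set-2*(*bn129*) mutants become sterile over generations at 25°C. The P0 group consisted of *set-2*(*bn129*)/*qC1* heterozygotes, in which the other chromosome III is a balancer. The F2 fertile, F4 fertile and F4 sterile groups were homozygous for *set-2*(*bn129*), F4 fertile and F4 sterile animals belonging to the same generation. Each group held 1 sample of each of 3 lineages, 12 samples in all, of day 1 adult hermaphrodites of strain PFR541 kept at 25°C. Every sample pooled dissected gonad arms cut at the bend, so values are averages over many animals and over all germ cells and gonadal cells in the tissue. Homozygosity and generation change together between P0 and the later groups, no group is wild type, and fertile animals were those that laid live progeny, whereas sterile animals had no visible embryos.

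Between 3456068 and 10335794 reads were counted on genes per sample. The *set-2* transcript was at 133 ± 1.65 CPM (counts scaled to 1000000 per library, SD, n = 3 in each group) in F4 sterile, 125 ± 3.93 CPM in F4 fertile and 147 ± 8.97 CPM in F2 fertile gonads, against 192 ± 5.71 CPM in P0 gonads. The 9 oocyte and eggshell markers were counted in every library and summed to between 11709 and 18800 CPM, and the 14 sperm markers found in the files summed to at most 6.74 CPM. The 3 lineages are separate, and p-values measure the spread between the samples of a group. These samples differ in lineage and in part also in the prefix of their library names.

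In the authors' WS220 coordinates, *cey-2* (WBGene00000473, F46F11.2) lies on chromosome I at 5619570-5620671 on the plus strand and *cey-3* (WBGene00000474, M01E11.5) at 5571787-5572976 of the same chromosome on the minus strand. They are 46.6 kb apart with 14 genes of the table between them. *cey-1* (WBGene00000472, F33A8.3) lies on chromosome II at 11039352-11041150 and *cey-4* (WBGene00000475, Y39A1C.3) on chromosome III at 10866789-10868628, both on the minus strand. For *cey-4* a comparison with P0 therefore also compares 2 copies of the *set-2* mutant chromosome with 1 copy beside the balancer, and effects of the balancer and of *set-2* cannot be told apart. *cey-1* overlaps F33A8.10 on the other strand by 62 bases, and *cey-4* overlaps *oxi-1* by 107 bases. The kit does not mark strand, so reads in these stretches cannot be told apart. F33A8.10 had at most 1.41 CPM in any library. *oxi-1* rose in F4 sterile against P0 gonads (log2 fold change 0.31, SE 0.09, edgeR Benjamini-Hochberg adjusted p = 0.016).

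*cey-2* was the most abundant of the family. Its level by lineage was 2693, 2776 and 2756 CPM in P0 gonads and 1942, 2234 and 2733 CPM in F2 fertile gonads. It was 1570, 1696 and 2332 CPM in F4 fertile gonads and 1180, 981 and 1609 CPM in F4 sterile gonads. The P0 samples lay within a narrow range, and the samples of each later group were more spread, with lineage 3 the highest of the F2 fertile, F4 fertile and F4 sterile samples. In each of these later groups the lineage 3 library was also the only one with its library name prefix. Lineage and prefix therefore cannot be told apart for this pattern.

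*cey-3* followed the same order at a lower level. It had 1174, 1253 and 1204 CPM in P0 gonads, and 953, 977 and 1097 CPM in F2 fertile gonads. It had 727, 771 and 977 CPM in F4 fertile gonads, and 593, 516 and 753 CPM in F4 sterile gonads. Within each of the 3 lineages both *cey-2* and *cey-3* were highest in P0, next in F2 fertile, then in F4 fertile and lowest in F4 sterile gonads. This order in all 3 lineages was found for 195 of the 8746 genes tested, or 2.23%.

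The broader genes had no such order. *cey-1* had 265, 249 and 274 CPM in P0 gonads, 191, 263 and 268 CPM in F2 fertile gonads, 301, 258 and 285 CPM in F4 fertile gonads and 282, 308 and 331 CPM in F4 sterile gonads. The lowest of all 12 values was that of F2 fertile lineage 1, and the F4 sterile samples lay above all P0 samples. *cey-4* had 594, 484 and 522 CPM in P0 gonads, 473, 554 and 547 CPM in F2 fertile gonads, 495, 545 and 540 CPM in F4 fertile gonads and 496, 637 and 627 CPM in F4 sterile gonads. Its groups overlapped in every comparison.

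**Figure D1:**
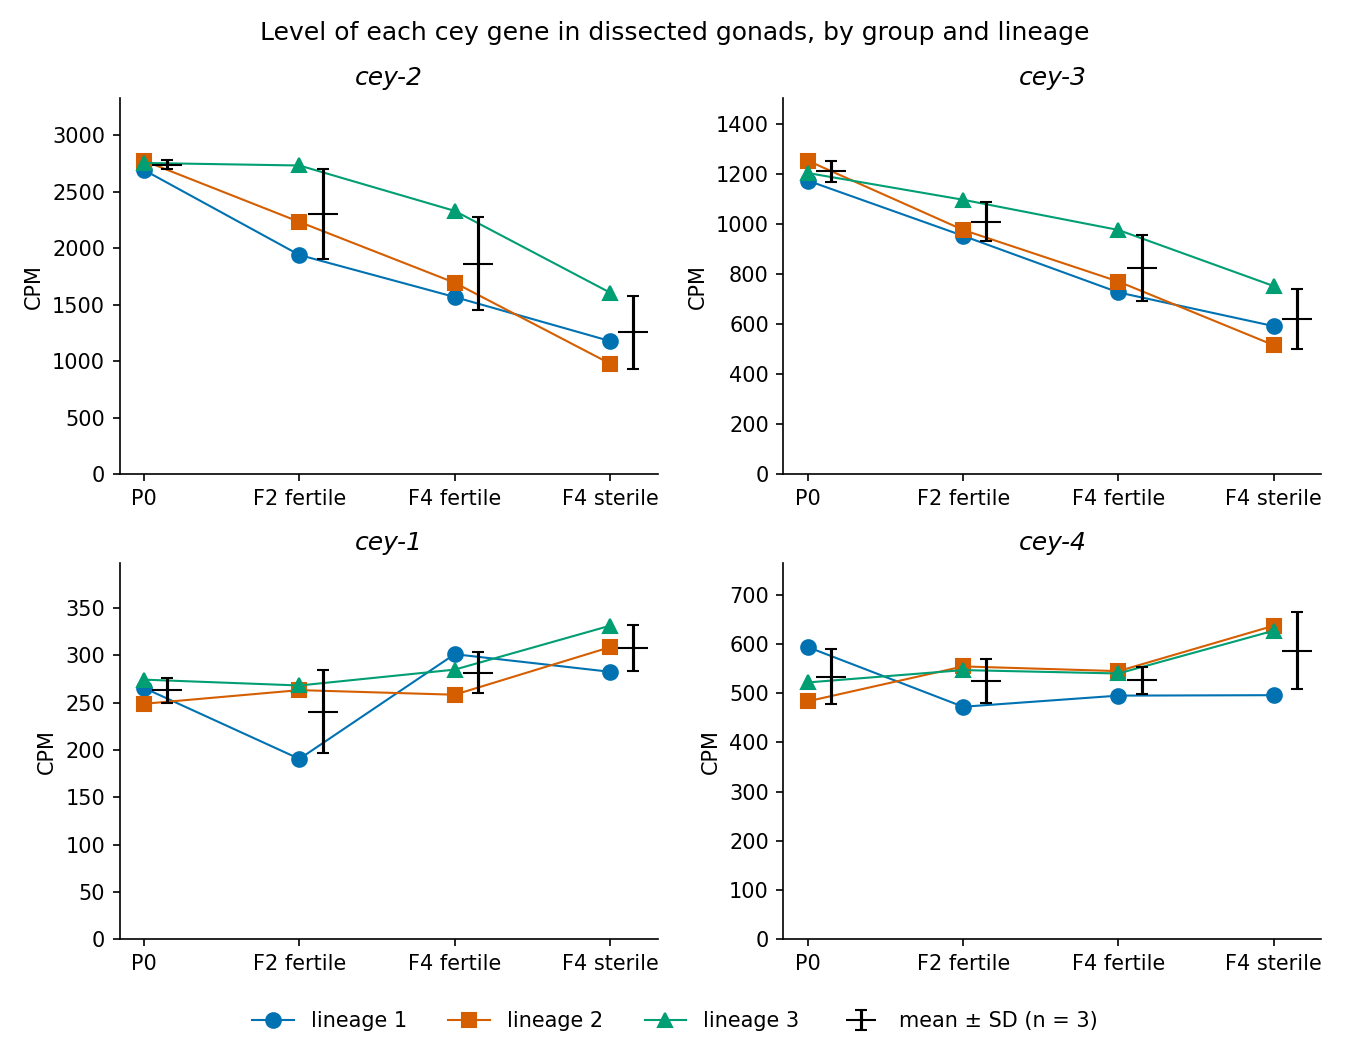
Level of each cey gene (CPM, linear axis starting at 0) in the 4 groups, P0 at the left. Symbols are single samples, lines join samples of 1 lineage, and the black marks give the mean ± SD (n = 3). For *cey-2* the F4 sterile samples sit between 981 and 1609 CPM and the P0 samples between 2693 and 2776 CPM, whereas for *cey-4* all groups overlap.

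F4 sterile gonads had the lowest levels of *cey-2* and *cey-3*, whereas *cey-1* and *cey-4* did not pass the test. *cey-2* averaged 1257 ± 321 CPM in F4 sterile and 2741 ± 43.3 CPM in P0 gonads (SD, n = 3 each), a log2 fold change of -1.13 (SE 0.19, 95% interval -1.53 to -0.72, edgeR quasi-likelihood test with Benjamini-Hochberg adjustment, adjusted p = 0.00042). *cey-3* averaged 621 ± 121 CPM in F4 sterile and 1210 ± 40.2 CPM in P0 gonads, a log2 fold change of -0.96 (SE 0.14, interval -1.26 to -0.67, adjusted p = 0.00014). Both genes fell, F4 sterile and P0 samples did not overlap, and every lineage was lower. Here and below, the shares of all tested genes without overlap, or moving 1 way in every lineage, are not given. The log2 ratio of F4 sterile over P0 was -1.19, -1.50 and -0.78 for *cey-2* in lineages 1, 2 and 3. The ratios for *cey-3* in these lineages were -0.99, -1.28 and -0.68, in the same order of lineages.

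For the broader genes the means of F4 sterile gonads were above those of P0, but neither gene was called. The log2 ratios in lineages 1, 2 and 3 were 0.09, 0.31 and 0.27 for *cey-1*. For *cey-4* they were -0.26, 0.40 and 0.26, with no common direction. *cey-1* averaged 307 ± 24.3 CPM in F4 sterile and 263 ± 12.9 CPM in P0 gonads, with a log2 fold change of 0.22 (SE 0.12, interval -0.03 to 0.48, adjusted p = 0.14). *cey-4* averaged 587 ± 78.7 CPM in F4 sterile and 533 ± 55.9 CPM in P0 gonads, with a log2 fold change of 0.14 (SE 0.11, interval -0.10 to 0.38, adjusted p = 0.35). The intervals of *cey-1* and *cey-4* lay wholly above those of *cey-2* and *cey-3*, but the difference between the genes was not itself tested. Of the 4 genes 2 were called, both lower, beside 43.3% of all genes tested that were called in either direction, 16.8% lower and 26.4% higher.

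F4 fertile gonads held intermediate levels of the germline pair. *cey-2* averaged 1866 ± 408 CPM in F4 fertile gonads, against 2741 ± 43.3 CPM in P0, and fell by 0.56 on the log2 scale (SE 0.19, edgeR adjusted p = 0.0492). *cey-3* averaged 825 ± 133 CPM in F4 fertile gonads, against 1210 ± 40.2 CPM in P0, and fell by 0.55 (SE 0.14, adjusted p = 0.013). Samples of the 2 groups did not overlap for either gene. The log2 fold changes were 0.10 (SE 0.12, adjusted p = 0.61) for *cey-1* and -0.02 (SE 0.11, adjusted p = 0.93) for *cey-4*. Again 2 of the 4 were called, both lower, beside 21.1% of all genes called in either direction, 7.42% lower and 13.7% higher. The *cey-2* call was close to the threshold and was lost when any P0 library, F4 fertile lineage 1 or F4 fertile lineage 2 was left out (adjusted p between 0.070 and 0.18). The *cey-3* call was lost without F4 fertile lineage 1 (adjusted p = 0.065) or lineage 2 (0.063).

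In F2 fertile gonads, which were collected before the F4 split into fertile and sterile animals, none of the 4 genes passed the test by edgeR or DESeq2, beside 8.93% of all genes called by edgeR (1.33% lower and 7.6% higher). At an unadjusted p under 0.05 the count was 0 by edgeR and 1 by DESeq2. Over all genes it was 1991 of 8746 by edgeR and 2063 by DESeq2. *cey-2* averaged 2303 ± 400.3 CPM in F2 fertile gonads, with a log2 fold change against P0 of -0.25 (SE 0.19, adjusted p = 0.48). *cey-3* averaged 1009 ± 77.3 CPM, with a log2 fold change of -0.26 (SE 0.14, adjusted p = 0.29). For *cey-3* the F2 fertile and P0 samples did not overlap, and both genes were lower in 3 of 3 lineages, by as little as 0.01 for *cey-2* in lineage 3. These patterns were not tested, and no share over all genes is given beside them. *cey-1* (-0.13, SE 0.12, adjusted p = 0.60) and *cey-4* (-0.02, SE 0.11, adjusted p = 0.93) overlapped between F2 fertile and P0. When all 26894 genes with at least 1 count were tested, *cey-2* (-0.31) and *cey-3* (-0.32) passed at an adjusted p of 0.036 each. With the library name prefix as a covariate their values were smaller, -0.15 and -0.18, and did not pass.

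Within the F4 generation, sterile gonads were set against fertile gonads of the same lineages, and the germline pair again had negative fold changes. The log2 fold change of F4 sterile over F4 fertile was -0.57 for *cey-2* (SE 0.19, interval -0.97 to -0.17, edgeR adjusted p = 0.10) and -0.41 for *cey-3* (SE 0.14, interval -0.71 to -0.11, adjusted p = 0.11). Both genes were lower in the sterile sample of 3 of 3 lineages, and the groups overlapped because lineage 3 stood high in both. Neither passed the threshold without a lineage term, whereas with lineage as a block both did, at adjusted p = 0.026 for *cey-2* and 0.040 for *cey-3*. In these 2 groups the samples of a lineage also share a library name prefix, so lineage and prefix cannot be told apart here. They also passed with DESeq2 (0.027 and 0.044) and when F4 sterile lineage 3 was left out (0.046 for each). *cey-1* (0.13, adjusted p = 0.60) and *cey-4* (0.16, adjusted p = 0.48) did not pass. Of the 4 genes 0 were called by edgeR without a lineage term, beside 3.28% of all genes (0.434% lower and 2.85% higher). An unadjusted p under 0.05 was reached by 2 of the 4, beside 1795 of all 8746 genes tested. With lineage as a block 127 of all genes were called lower, and 144 by DESeq2.

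Between F4 fertile and F2 fertile gonads the log2 fold changes were -0.30 for *cey-2* (SE 0.19, adjusted p = 0.66) and -0.29 for *cey-3* (SE 0.14, adjusted p = 0.54). Both were lower in F4 fertile gonads in 3 of 3 lineages. They were 0.23 for *cey-1* (SE 0.12, adjusted p = 0.59) and 0.01 for *cey-4* (SE 0.11, adjusted p = 0.99). By edgeR 0 of the 4 were called and 0 had an unadjusted p under 0.05, with the same counts by DESeq2, beside 0.0114% of all genes called by edgeR. Over all 8746 genes tested by edgeR, 808 had an unadjusted p under 0.05. The 3 comparisons with P0 share the P0 samples and the others share F4 fertile or F2 fertile samples, so their values are not independent.

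**Figure D2:**
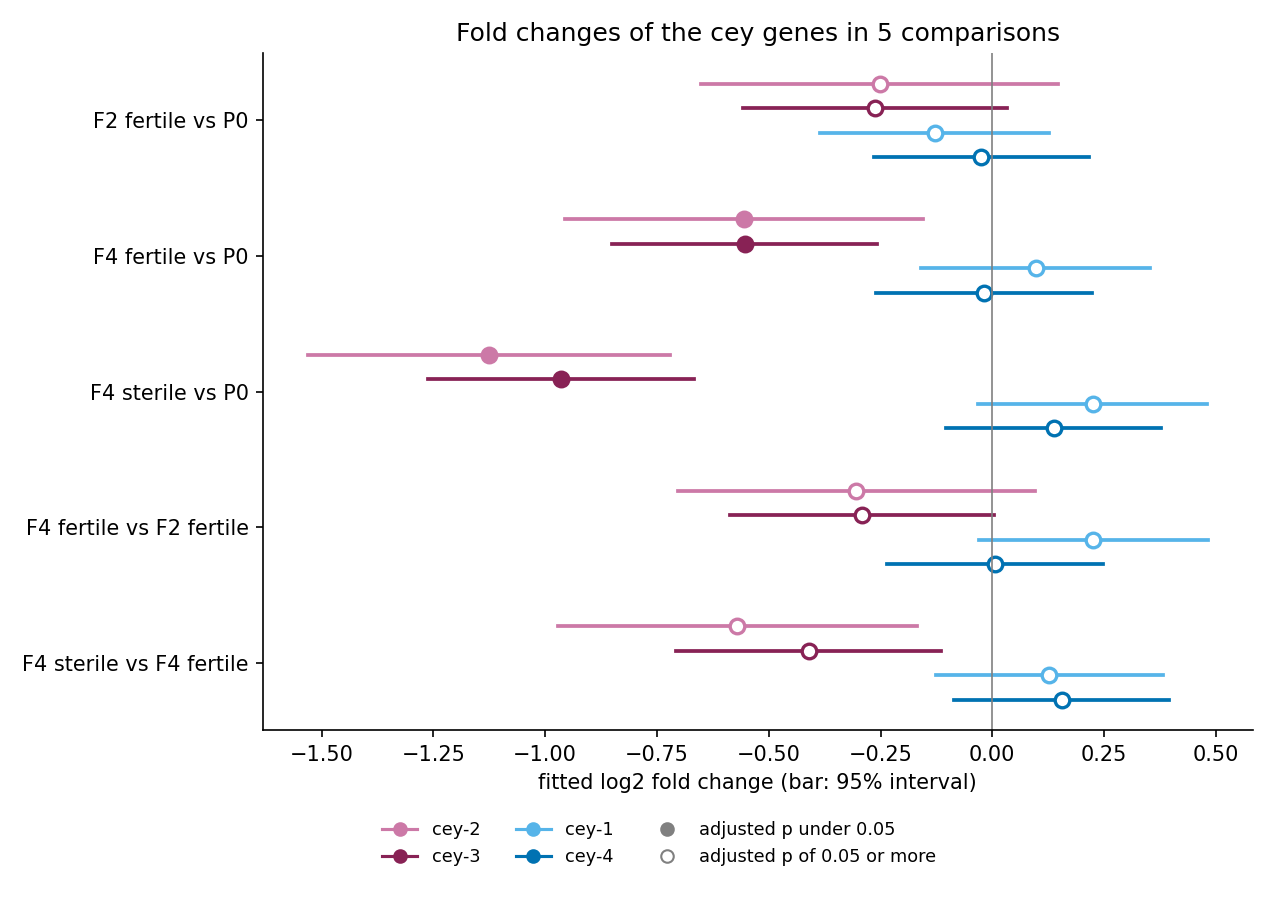
Fitted log2 fold change of each cey gene in 5 comparisons, first-named group over second, with bars for the 95% interval. Filled points have an edgeR adjusted p under 0.05 and open points do not. *cey-2* and *cey-3* lie left of 0 in all 5 comparisons and are filled in F4 fertile against P0 and F4 sterile against P0, and *cey-1* and *cey-4* are open throughout.

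The library names carry 3 prefixes, and the labels do not say whether they mark a batch. Within libraries of 1 prefix, F4 sterile over P0 gave log2 ratios of -1.46 and -0.78 for *cey-2* and of -1.18 and -0.71 for *cey-3*, in the 2 prefixes that held both groups. The same 2 prefixes gave 0.22 and 0.34 for *cey-1* and 0.10 and 0.32 for *cey-4*. Each of these ratios rests on 1 F4 sterile library against 1 or 2 P0 libraries, in the first prefix of different lineages, and has no error, and the third prefix held no P0 library. Within prefixes, F4 sterile over F4 fertile gave -0.41, -0.79 and -0.54 for *cey-2* and -0.30, -0.58 and -0.38 for *cey-3*. In these groups each prefix held 1 lineage, so these values are the same as the ratios by lineage. F4 fertile over P0 gave -0.67 and -0.25 for *cey-2* and -0.61 and -0.33 for *cey-3*. F2 fertile over P0 gave -0.37 and -0.02 for *cey-2* and -0.28 and -0.16 for *cey-3*. These ratios also rest on 1 or 2 libraries per group.

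To set the pairs against each other within a sample, the mean log2 CPM of *cey-1* and *cey-4* was subtracted from that of *cey-2* and *cey-3*. Library scaling cancels in this difference, which is given relative to its mean in P0 and without a test. It was 0 ± 0.13 in P0, -0.18 ± 0.13 in F2 fertile, -0.61 ± 0.24 in F4 fertile gonads and -1.25 ± 0.31 in F4 sterile gonads (SD, n = 3 each). P0 samples ran from -0.12 to 0.14 and overlapped the F2 fertile samples, which ran from -0.33 to -0.11. F4 fertile samples ran from -0.82 to -0.34 and F4 sterile samples from -1.60 to -1.01, so neither F4 group overlapped P0 or the other F4 group. By lineage, F4 sterile minus P0 was -1.004, -1.744 and -0.995, and F4 sterile minus F4 fertile was -0.31, -0.92 and -0.67. F2 fertile minus P0 was 0.02, -0.48 and -0.09, which have no common direction.

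**Figure D3:**
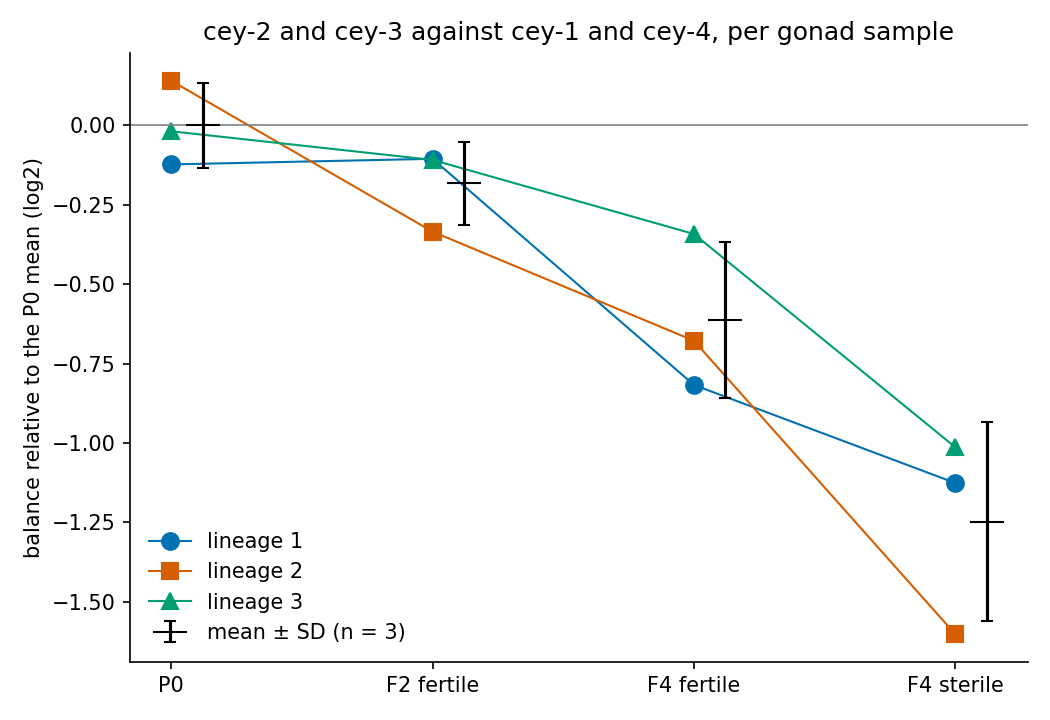
Mean log2 CPM of *cey-2* and *cey-3* minus that of *cey-1* and *cey-4*, per sample, relative to the P0 mean. Symbols are samples, lines join lineages and black marks give mean ± SD (n = 3). All F4 sterile samples lie at or below -1.01, below all F4 fertile samples.

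Levels were compared between genes per kilobase of exon. On this scale (CPM per kb) the order by group mean was *cey-2*, *cey-3*, *cey-4*, *cey-1* in all 4 groups. F4 sterile gonads had 1243 ± 317 for *cey-2*, 627 ± 122 for *cey-3*, 496 ± 66.5 for *cey-4* and 223 ± 17.6 for *cey-1* (SD, n = 3). P0 gonads had 2711 ± 42.8 for *cey-2*, 1223 ± 40.6 for *cey-3*, 451 ± 47.2 for *cey-4* and 190 ± 9.37 for *cey-1*. In P0, F2 fertile and F4 fertile gonads no neighbouring genes in this order overlapped. In F4 sterile gonads *cey-3* (522 to 760) and *cey-4* (419 to 539) did overlap, and their order did not exceed the spread.

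Of the summed level of the 4 genes per kb, *cey-2* held 47.6% ± 4.11 in F4 sterile and 59.3% ± 0.561 in P0 gonads. *cey-4* held 19.5% ± 3.84 in F4 sterile and 9.85% ± 1.10 in P0 gonads, and *cey-1* held 8.72% ± 1.12 in F4 sterile and 4.16% ± 0.218 in P0 gonads. The share of *cey-3* was 24.2% ± 0.960 in F4 sterile and 26.7% ± 0.728 in P0 gonads. The sum of the 4 genes was 2771 ± 478 CPM in F4 sterile, 3499 ± 556 CPM in F4 fertile and 4077 ± 546 CPM in F2 fertile gonads, against 4747 ± 19.4 CPM in P0 gonads.

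By mean CPM per kb among 19224 protein-coding genes, *cey-2* ranked 46 in P0, 64 in F2 fertile, 70 in F4 fertile gonads and 99 in F4 sterile gonads. *cey-3* ranked 121, 129, 132 and 156 in these groups in the same order. *cey-1* ranked 361 in F4 sterile and 497 in P0 gonads, and *cey-4* ranked 181 in F4 sterile and 199 in P0 gonads. All 4 were therefore among the most abundant messages of the gonad in every group. The log2 ratio of *cey-2* to *cey-3* (CPM) was 1.18 ± 0.03 in P0, 1.18 ± 0.15 in F2 fertile and 1.17 ± 0.08 in F4 fertile gonads, and 1.01 ± 0.09 in F4 sterile gonads, where its range (0.93 to 1.10) lay below that of P0 (1.15 to 1.20).

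Over the 12 samples, the gene whose log2 CPM was most like that of *cey-2* was *cey-3* (Pearson r = 0.990), and the next were *hsp-60* (0.989), the mitochondrial chaperonin, and *cdd-2* (0.985), which encodes a cytidine deaminase. For *cey-3* they were *cey-2*, *hsp-60* (0.987) and F42A10.5 (0.986). These correlations describe samples that share libraries and groups, and 201 other tested genes reached an r of 0.9 with *cey-2* and 253 with *cey-3*. *hsp-60* averaged 827 ± 162 CPM in F4 sterile and 1406 ± 29.4 CPM in P0 gonads (log2 fold change -0.77, SE 0.13, edgeR adjusted p = 0.00050).

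The broader genes had few close neighbours, with 4 genes at an r of 0.9 or more for *cey-1* and 5 for *cey-4*. Those nearest to *cey-1* were Y69A2AR.28 (r = 0.946), the histone gene *his-64* (0.936) and *sdhd-1* (0.914), a subunit of succinate dehydrogenase. *sdhd-1* lies 7.91 kb from *cey-1* on the same strand, and it rose in F4 sterile against P0 gonads (log2 fold change 0.33, SE 0.11, edgeR adjusted p = 0.023). Those nearest to *cey-4* were Y39E4A.3 (0.930), the lectin gene *clec-85* (0.921), which averaged 5.09 CPM, and F54D7.6 (0.910). *cey-1* and *cey-4* correlated with each other at r = 0.618, and *cey-1* with *cey-2* at -0.369.

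The mRNP partners of the CEY proteins included abundant messages that were lower in the same gonads. Of 9 CGH-1 mRNP and decapping factors, 4 fell and 1 rose in F4 sterile against P0 gonads, beside 16.8% of all genes tested that were called lower and 26.4% called higher (median log2 fold change -0.17, beside 0.05 over all genes tested). *cgh-1*, the DEAD-box helicase that stores and protects maternal mRNA, averaged 1863 ± 440.4 CPM in F4 sterile and 3455 ± 81.4 CPM in P0 gonads (-0.89, SE 0.13, edgeR adjusted p = 0.00020). *car-1*, an Sm-domain RNA-binding protein, averaged 1228 ± 106 CPM in F4 sterile and 2035 ± 143 CPM in P0 gonads (-0.73, SE 0.11). *ifet-1*, the eIF4E-transporter homologue that represses translation, had a log2 fold change of -0.67 (SE 0.09), and *lsm-3*, an Sm-like ring subunit, of -0.43 (SE 0.12). *dcap-2*, the decapping enzyme, rose by 0.42 (SE 0.10), a call that was lost without P0 lineage 1 or lineage 2. *lsm-1*, *patr-1*, *edc-3* and *dcap-1* did not pass the test.

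Of the same list 3 fell (*cgh-1*, *car-1* and *ifet-1*) and 1 rose (*dcap-2*) in F4 fertile against P0 gonads, beside 7.42% of all genes called lower and 13.7% called higher. Without F4 fertile lineage 1 or lineage 2 none of the 3 falls was called, and without P0 lineage 1 or lineage 2 only 1 was. The *dcap-2* call was lost without any 1 P0 library, F4 fertile lineage 1 or F4 fertile lineage 2. In F2 fertile against P0 gonads 0 of the 9 were called by edgeR or DESeq2, and 0 had an unadjusted p under 0.05. Over all 8746 genes tested, 781 were called by edgeR and 1991 had an unadjusted p under 0.05. In F4 sterile against F4 fertile gonads 0 were called by edgeR (beside 0.434% of all genes called lower). An unadjusted p under 0.05 was reached by 4 of the 9, beside 1795 of all 8746 genes tested. With lineage as a block or with DESeq2, 3 were called lower, beside 127 and 144 of all genes.

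P granules are the germline RNA condensates to which *cey-2* and *cey-3* products have been assigned. Of 8 core components, 6 fell and 0 rose in F4 sterile against P0 gonads, beside 16.8% of all genes called lower and 26.4% called higher (median log2 fold change -0.42, beside 0.05 over all genes). The scaffold genes fell by 0.87 for *pgl-3* (SE 0.08, edgeR adjusted p = 5.7e-06), 0.60 for *pgl-1* (SE 0.09) and 0.54 for *pgl-2* (SE 0.12). *deps-1*, which promotes P granule assembly, fell by 0.63 (SE 0.10), and the Vasa-like helicase *glh-1* by 0.30 (SE 0.10). *glh-4*, outside the named 5, was the other one called, and *glh-2* and *glh-3* were not. In F4 fertile against P0 gonads 4 fell (*pgl-1*, *pgl-2*, *pgl-3* and *deps-1*), in F2 fertile against P0 gonads 1 fell (*pgl-3*, -0.30, SE 0.08, adjusted p = 0.034), and in F4 sterile against F4 fertile gonads 1 fell (*pgl-3*, -0.35, SE 0.08, adjusted p = 0.037). The shares of all genes called lower in these comparisons were 7.42% for F4 fertile against P0, 1.33% for F2 fertile against P0 and 0.434% for F4 sterile against F4 fertile. The F2 fertile call was lost without P0 lineage 2 or 3 or F2 fertile lineage 1 or 2, and the count was 2 without F2 fertile lineage 3. The sterile against fertile call was lost without any 1 of the F4 fertile libraries or F4 sterile lineage 2, and the count was 2 without F4 sterile lineage 1.

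Of 10 translational regulators of oocytes and the germline, 3 fell and 0 rose in F4 sterile against P0 gonads, beside 16.8% of all genes called lower and 26.4% called higher (median log2 fold change -0.18, beside 0.05 over all genes). *gld-1*, a KH-domain repressor of translation in meiotic germ cells, averaged 891 ± 78.9 CPM in F4 sterile and 1490 ± 78.8 CPM in P0 gonads (-0.74, SE 0.09, edgeR adjusted p = 3.9e-05). *lin-41*, a TRIM-NHL protein of growing oocytes, fell by 0.44 (SE 0.09), and the Pumilio-family gene *puf-5* by 0.43 (SE 0.12). The count was 6 without F4 sterile lineage 1. In F4 fertile against P0 gonads 1 fell (*gld-1*) and 1 rose (*mex-5*), beside 7.42% of all genes called lower and 13.7% called higher, the rise being lost without any 1 P0 or F4 fertile library. *lin-28*, another gene with a cold-shock domain, known from developmental timing, had 76.4, 67.6 and 74.2 CPM in F4 sterile gonads, against 64.3, 57.0 and 67.2 CPM in P0 gonads (log2 fold change 0.21, SE 0.10, adjusted p = 0.12).

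**Figure D4:**
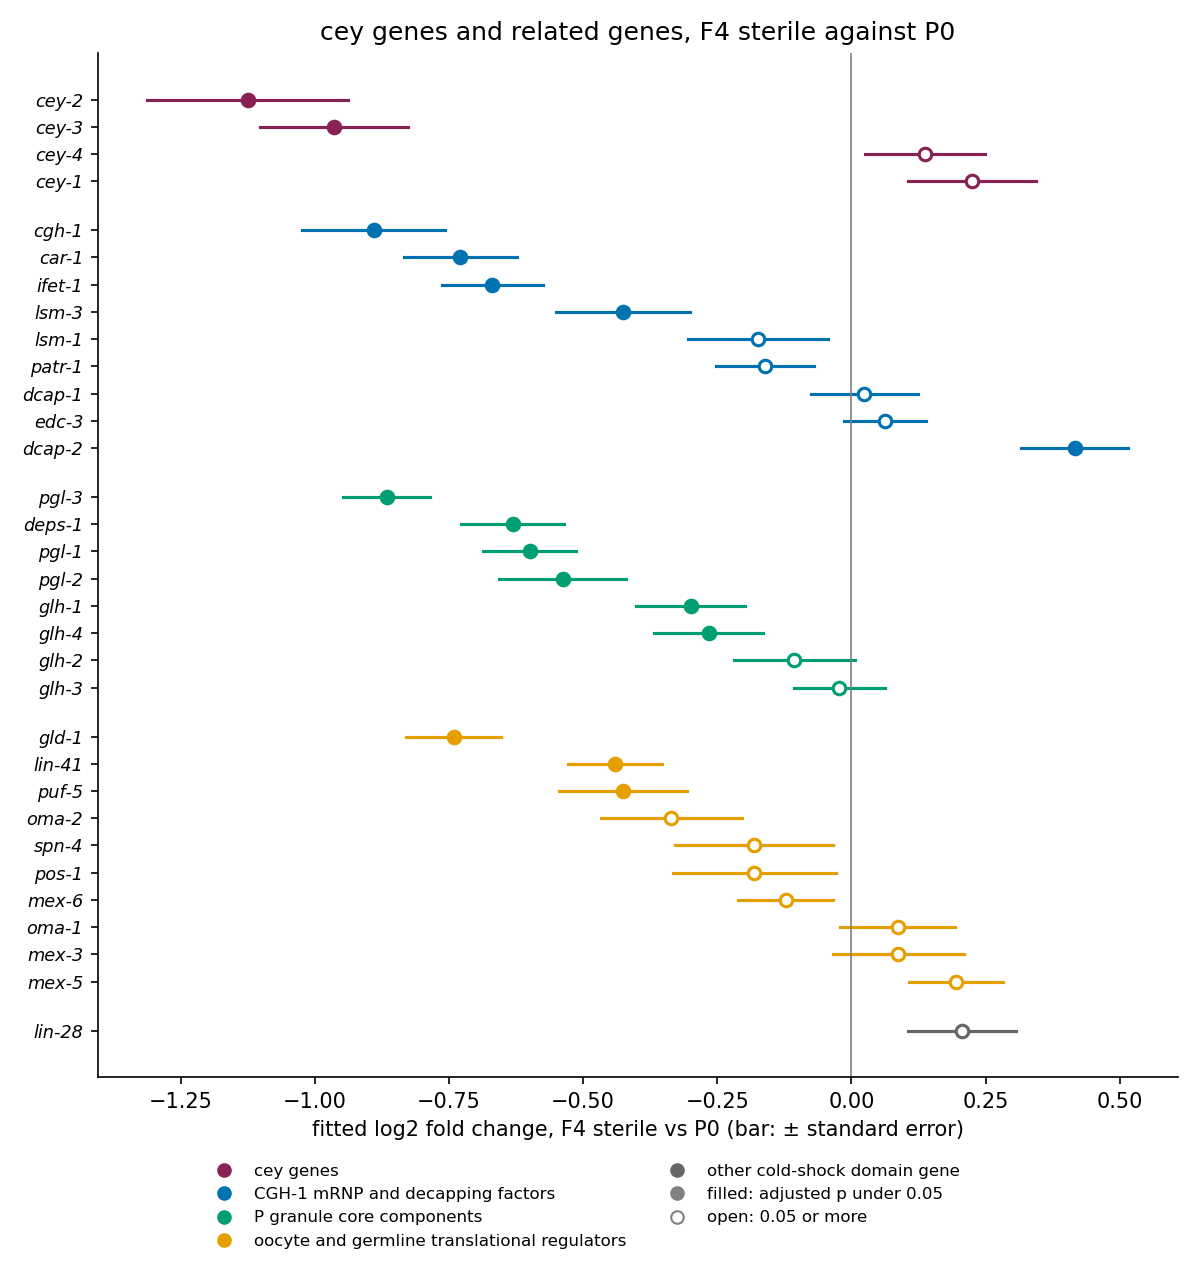
Fitted log2 fold change of F4 sterile over P0 for the cey genes and 3 lists of mRNP and germline RNA regulators, with *lin-28* at the bottom. Bars give ± 1 standard error, and filled points have an edgeR adjusted p under 0.05. *cey-2* (-1.13) and *cey-3* (-0.96) are the lowest of the genes shown, and *dcap-2* (0.42) is the highest.

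Markers of cell types were counted in the same gonads, where 43.3% of all genes tested were called in F4 sterile against P0 (16.8% lower and 26.4% higher). All 4 tested neuron markers (*snb-1*, *unc-64*, *egl-3* and *unc-10*) rose in F4 sterile against P0 gonads, and the 6 listed summed to between 135 and 150 CPM in F4 sterile and between 94.2 and 100.3 CPM in P0 gonads. Most of this sum was *snb-1*, at 119.7 CPM in F4 sterile and 93.2 CPM in P0 gonads (log2 fold change 0.36). *unc-64*, *egl-3* and *unc-10* averaged 8.40, 6.76 and 6.89 CPM in F4 sterile gonads, against 1.26, 1.22 and 1.93 CPM in P0 gonads. Of the 2 listed neuron markers that were not tested, *rab-3* was at 0 in 4 of the 12 libraries and *sng-1* in 2. Of 9 oocyte and eggshell markers 3 fell (*rme-2*, *cbd-1* and *cpg-2*), and their sum was between 11709 and 14793 CPM in F4 sterile and between 16525 and 18537 CPM in P0 gonads. Of 7 meiotic chromosome genes 4 fell and 1 rose, with sums between 700 and 802 CPM in F4 sterile and between 902 and 1017 CPM in P0 gonads. In such bulk samples fewer cells of a type and less RNA per cell cannot be told apart, and the part of these cells in the levels of the cey genes was not tested.

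Of 3 tested sheath markers 1 rose (*inx-9*) and 1 fell (*inx-8*) in F4 sterile against P0 gonads, with sums between 30.5 and 62.9 CPM in F4 sterile and between 39.1 and 56.5 CPM in P0 gonads. Of 4 body muscle and 3 tested intestine markers 0 were called by edgeR or DESeq2. An unadjusted p under 0.05 was reached by 1 muscle marker, beside 4435 of all 8746 genes tested. The muscle sums ran from 47.1 to 191 CPM in F4 sterile and from 57.1 to 92.6 CPM in P0 gonads. Intestine sums ran from 1019 to 5701 CPM in F4 sterile and from 3208 to 4119 CPM in P0 gonads, nearly all of them from yolk protein genes. Of 3 tested epidermis markers 1 fell (*bli-1*). In the F4 fertile group the oocyte and eggshell sums were between 17162 and 17911 CPM and overlapped those of P0, and 0 of the 9 were called by edgeR or DESeq2 or had an unadjusted p under 0.05. Other markers passed the test in F4 fertile against P0 gonads, where 21.1% of all genes were called. Of all 8746 genes tested, 3041 had an unadjusted p under 0.05 there. *htp-1* (-0.42, SE 0.11, edgeR adjusted p = 0.015) and *htp-3* (-0.44, SE 0.08, adjusted p = 0.0030) of the meiotic genes and *inx-8* of the sheath (-0.98, SE 0.29, adjusted p = 0.029) fell, and the neuron marker *unc-64* rose (1.22, SE 0.41, adjusted p = 0.049). Meiotic sums were between 807 and 818 CPM in F4 fertile and between 902 and 1017 CPM in P0 gonads, and sheath sums between 28.8 and 34.3 CPM in F4 fertile and between 39.1 and 56.5 CPM in P0 gonads. Neuron sums were between 101 and 126 CPM in F4 fertile and between 94.2 and 100.3 CPM in P0 gonads. None of these 3 sums overlapped between the groups, a pattern that was not tested and has no share over other lists beside it. The neuron sums lay closest, with the lowest F4 fertile sample at 101.15 CPM and the highest P0 sample at 100.28 CPM. The sheath sum came mostly from *inx-8* (18.5 CPM in F4 fertile and 36.7 CPM in P0 gonads). *lim-7* (log2 fold change 0.71) and *inx-9* (0.39) were higher in F4 fertile gonads but not called. The neuron sum came mostly from *snb-1*, which overlapped between F4 fertile (91.3 to 117.8 CPM) and P0 gonads (90.6 to 95.1 CPM). The part of these cell types in the levels of *cey-2* and *cey-3* was not tested.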

How the data were processed

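Gonad RNA of 12 samples was compared in 4 groups of 3, with groups and replicates taken from the sample labels. The replicate number was read as the lineage, which the labels do not state. TopHat2 was used by the authors to map reads to transcriptome version WS220, and HTSeq to count them per gene after multiply mapping and ribosomal RNA reads had been discarded. The deposited count files hold whole counts without normalization. The strand setting of the counting is not given in the sources used here. The authors also deposited a table of 45627 rows of normalized signal, in which each count was scaled by a DESeq2 size factor, used here only to check that each column matched its sample, with 0 sample columns left unmatched. That table also holds the authors' own fold changes and p-values, which were not used.

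Reads on no gene (8.23% to 14.4%) and ambiguous reads (1.76% to 2.24%) were left out. A sample held between 3456068 and 10335794 reads on genes. Groups were compared by the quasi-likelihood test of edgeR 4.0.16 (R 4.3.3), with TMM scaling, filterByExpr and a prior count of 2. This was 1 fit over the 12 samples without a lineage term, as in the paper's DESeq2 comparisons with P0. The paper's Within-Class Analysis, by contrast, took each lineage as a class. Benjamini-Hochberg adjustment ran across 8746 tested genes, with a threshold of 0.05 on the adjusted p. CPM are counts scaled to 1000000 by TMM library size. CPM per kb divides them by the summed exon length of the gene in the Ensembl WBcel235 annotation, from which no coordinate was taken. Summaries were written in Python 3.11.15. The test was also run on counts simulated from the levels and common dispersion of these data, whose result is not given here.

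The 4 genes, the gene lists and the tests were chosen with earlier results of these data known. All 4 cey genes are named in each comparison, with the 3 genes most like each by Pearson correlation and, of each list, up to 5 members that passed the test in F4 sterile against P0, taken by size of change. Read as lineages, the replicate numbers pair the samples, since a lineage was founded by its own P0 animals. After group means were removed, same-lineage samples correlated at 0.0953 on average, above 0.1 in 7 of 18 pairs. All 7 were among the 11 pairs that also shared a library name prefix (mean 0.200). The 7 same-lineage pairs of different prefixes averaged -0.0691, with 0 above 0.1, and 8 pairs of different lineages with 1 prefix averaged 0.132. The common dispersion was 0.0314 in the main fit, which had neither a lineage nor a prefix term. Adding the lineage block lowered it to 0.0207. The fit that took the library name prefix as covariate gave 0.0116, the lowest of these values. The alternatives tried were other size factors, no expression filter, the replicate block, the library name prefix as a covariate, another prior count, a fit of only the 6 samples compared, DESeq2 1.42.0 and leaving out each library. Sperm markers matched 14 of 15 names, and ifet-1 stands in the files as pqn-45.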

Additional observations from a re-analysis of the deposited data

How the results depend on the processing

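The falls of *cey-2* and *cey-3* in F4 sterile against P0 gonads passed the threshold under all alternatives run (highest adjusted p 0.0018 for *cey-2* and 0.0014 for *cey-3*). Of 140 values of the 4 genes under other settings, 130 kept their side of the threshold and 10 newly passed it. Testing every gene with at least 1 count gave -0.31 for *cey-2* and -0.32 for *cey-3* in F2 fertile against P0, and -0.62 and -0.46 for these genes in F4 sterile against F4 fertile. In the last comparison both also passed with the replicate block (-0.57 and -0.41), with the library name prefix as a covariate (-0.57 and -0.41, adjusted p = 0.0059 and 0.011) and with DESeq2 (-0.59 and -0.43). The replicate block changed no other call of the 4 genes. The prefix covariate gave smaller falls against P0. For *cey-2* and *cey-3* they were -0.15 and -0.18 in F2 fertile gonads, neither called, and -0.45 and -0.47 in F4 fertile gonads, both called. Leaving out 1 library gave values between -0.80 and -0.44 for *cey-2* and between -0.74 and -0.47 for *cey-3* in F4 fertile against P0, and between -0.79 and -0.42 for *cey-2* and between -0.58 and -0.32 for *cey-3* in F4 sterile against F4 fertile. Among values that passed no test, in F2 fertile against P0 *cey-2* ran between -0.47 (without F2 fertile lineage 3) and -0.14 (without F2 fertile lineage 1), and in F4 fertile against F2 fertile between -0.49 (without F4 fertile lineage 3) and -0.14 (without F2 fertile lineage 3). In F4 sterile against P0 *cey-1* ran between 0.09 (without P0 lineage 2) and 0.28 (without F4 sterile lineage 1), and *cey-4* between -0.02 (without P0 lineage 2) and 0.24 (without F4 sterile lineage 1). Of 120 values of the 4 genes with 1 library left out, 111 kept their call, 7 lost it and 2 gained it. The difference between the pairs of genes moved by less than 1 SD in all 40 alternatives, but its F2 fertile minus P0 value of -0.18 was -0.11 without F2 fertile lineage 2 and -0.11 without P0 lineage 2.

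The number of genes called in F4 sterile against F4 fertile depended on the setting, with 287 by edgeR without a lineage term, 603 with the replicate block, 654 by DESeq2, 1174 with the prefix covariate and 1007 of all genes with a count. With only those 6 samples edgeR called 0, with 1423 at an unadjusted p under 0.05. Leaving out 1 library gave between 2 and 1212 calls. Of 280 list counts under other settings, 23 moved by over 1.5 times.

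With 3 lineages per group, smaller differences of *cey-1* and *cey-4* than their intervals were not detectable. Intervals cover the spread between samples of a group, which differ in lineage and in part also in library name prefix. Reads copied by PCR do not count separate molecules. Gene levels per kb rest on exon lengths of a later annotation than the one counted.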
